A study of Mus musculus with 15 samples.

Results

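Type I interferon-stimulated genes were followed through 15 arrays of sorted mouse XCR1+ dendritic cells (DCs), the subset that cross-presents antigen to CD8 T cells. The set was named by symbol and had 43 genes, and each was read from the probe set with the highest mean over the 15 arrays among those that carry its symbol alone. This left 41 genes of the 18194 measured in the same way. Isg15, whose only probe set lists a second gene as well, and Ifi44 were not analysed here. All 41 genes passed the filter on dim signal, which asked for a log2 value above 4.39, the 40th percentile of the table, on 3 or more arrays, and none of them passed through the polyI:C arrays alone.

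The arrays fall into 5 groups of 3: CCR7- and CCR7+ cells from the thymus of untreated mice, the same fractions from the spleen of untreated mice, and spleen CCR7+ cells taken 18 h after an intraperitoneal injection of 10 µg polyI:C. All cells were gated as CD11c+ CD317- CD172a-, with CD117+ CCR7- for the cells called immature and CD117- CCR7+ for those called matured. XCR1 is in the names of the cells and not in the gates, and CD317 is the product of Bst2, a gene of the set. Strain, age, sex and the number of mice behind an array are not given in the labels. Nothing says that the replicates came from separate mice, so the p-values rest on how these samples spread, which may be technical. The spleen titles carry a tag that the thymus titles lack and whose meaning is not stated, so it cannot be told apart from tissue. The arrays address how far steady-state maturation of these cells in thymus resembles that in spleen and how both compare with maturation driven by polyI:C.

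Type I interferons bind a receptor made of IFNAR1 and IFNAR2, and the kinases JAK1 and TYK2 then phosphorylate STAT2. STAT2 acts with IRF9 in the complex ISGF3, which binds interferon-stimulated response elements near the starts of its target genes. PolyI:C is a synthetic double-stranded RNA that is sensed by TLR3 in endosomes and by MDA5, the product of Ifih1, in the cytosol, and both routes induce interferon genes. In the mouse thymus, medullary epithelial cells are known to make interferon beta without infection.

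The promoters of 31 of the 41 genes were found in RefSeq (GRCm38.p6), as windows from 250 bases before to 50 bases after a transcript start. The core of the response element was searched as GAAANNGAAA on the gene's strand or as TTTCNNTTTC, the same core on the other strand, with overlapping matches counted separately. It was in the windows of 12 of these 31 genes (38.7%) and of 1079 of the 27025 genes with windows (3.99%), or in 13 of 41 windows (31.7%) against 1131 of 32851 (3.44%). The stretches below were chosen among windows with a core. They belong to genes with wide polyI:C changes, or, for Ifitm3, to the gene whose tissue difference ran against its polyI:C change. Ifit2, Oasl2, Xaf1, Isg20 and Cmpk2 also had wide polyI:C changes but no core in a window, and are not shown. Capitals mark the core, and the first 6 stretches end on the base before the start.
Ifit1: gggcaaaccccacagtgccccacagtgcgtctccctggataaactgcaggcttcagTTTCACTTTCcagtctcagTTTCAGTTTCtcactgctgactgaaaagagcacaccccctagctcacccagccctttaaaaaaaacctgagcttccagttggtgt
Ifit3: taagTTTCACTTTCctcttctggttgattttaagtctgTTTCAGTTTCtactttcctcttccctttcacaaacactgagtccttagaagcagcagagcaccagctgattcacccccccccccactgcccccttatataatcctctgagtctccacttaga
Oas1a: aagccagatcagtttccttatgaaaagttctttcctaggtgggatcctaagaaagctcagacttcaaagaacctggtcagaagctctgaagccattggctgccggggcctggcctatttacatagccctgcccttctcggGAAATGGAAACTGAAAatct
Oas3: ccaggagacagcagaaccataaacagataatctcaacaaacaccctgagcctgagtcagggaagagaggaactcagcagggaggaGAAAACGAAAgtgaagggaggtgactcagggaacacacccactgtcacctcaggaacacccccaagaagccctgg
Rsad2: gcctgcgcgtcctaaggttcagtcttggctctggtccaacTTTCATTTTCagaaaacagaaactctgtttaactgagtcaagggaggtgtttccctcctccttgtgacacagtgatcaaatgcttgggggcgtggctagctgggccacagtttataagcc
Ddx60: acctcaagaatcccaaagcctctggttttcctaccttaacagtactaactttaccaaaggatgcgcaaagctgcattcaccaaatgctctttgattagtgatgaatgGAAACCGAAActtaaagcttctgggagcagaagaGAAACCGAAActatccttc
Ifitm3: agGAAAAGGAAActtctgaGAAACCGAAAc

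These stretches lie at chr19:34640729-34640888 on the plus strand (Ifit1), chr19:34583369-34583528 on the plus strand (Ifit3), chr5:120907526-120907685 on the minus strand (Oas1a), chr5:120777660-120777819 on the minus strand (Oas3), chr12:26456453-26456612 on the minus strand (Rsad2) and chr8:61927927-61928086 on the plus strand (Ddx60). The Ifitm3 stretch, chr7:141010715-141010744 on the minus strand, is the first 30 transcribed bases. Ifit1 and Ifit3 each held 2 cores, read on the opposite strand, that began 104 and 85 bases and 156 and 122 bases before the start. Ddx60 held 2 cores of identical letters, 53 and 19 bases before the start, and the 2 cores of Oas1a overlapped at 20 and 14 bases before it. Oas3 and Rsad2 held 1 core each, at 75 and 120 bases. The other genes with a core in a window were Trim21, Trim30a, Ifih1, Eif2ak2 and Bst2. No promoter window was found for Usp18, Oas2, Dhx58, Zbp1, Mx1, Mx2, Parp9, Parp14, Rtp4 and Tor3a. A match describes the letters and shows no binding, and a window without a match says only that the letters are not there.

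Values are log2 RMA values, on which a difference of 1 is a 2-fold difference, and they reached 14.4 over all arrays. Of 13629 genes tested, a gene was called where limma's moderated test gave a Benjamini-Hochberg adjusted p under 0.05, and all adjusted p-values here are of this kind. Each array gives 1 value per gene and 3 arrays per group limit the precision. In these bulk samples, fewer cells of a type and less RNA per cell cannot be told apart. The measured XCR1+ DC markers (11) were above the filter value in every group, with a mean of 11.00 to 11.34 in the CCR7- arrays, 8.74 to 8.98 in thymus CCR7+, 9.68 to 10.39 in untreated spleen CCR7+ and 9.07 to 9.43 in polyI:C arrays. Xcr1 itself was 6.16, 9.0 and 8.93 in the untreated spleen CCR7+ arrays, so replicate 1 stood apart there, and this array was the lowest of its group for 27 of the 41 interferon-stimulated genes. In thymus CCR7+ arrays Xcr1 was 4.85, 5.09 and 5.81, and in polyI:C arrays 7.85, 7.75 and 7.01. Of the 11 markers, 6 were lower in thymus than in untreated spleen CCR7+ cells and 6 fell after polyI:C, with 0 higher in either comparison. Their part in the results was not tested.

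**Figure D1:**
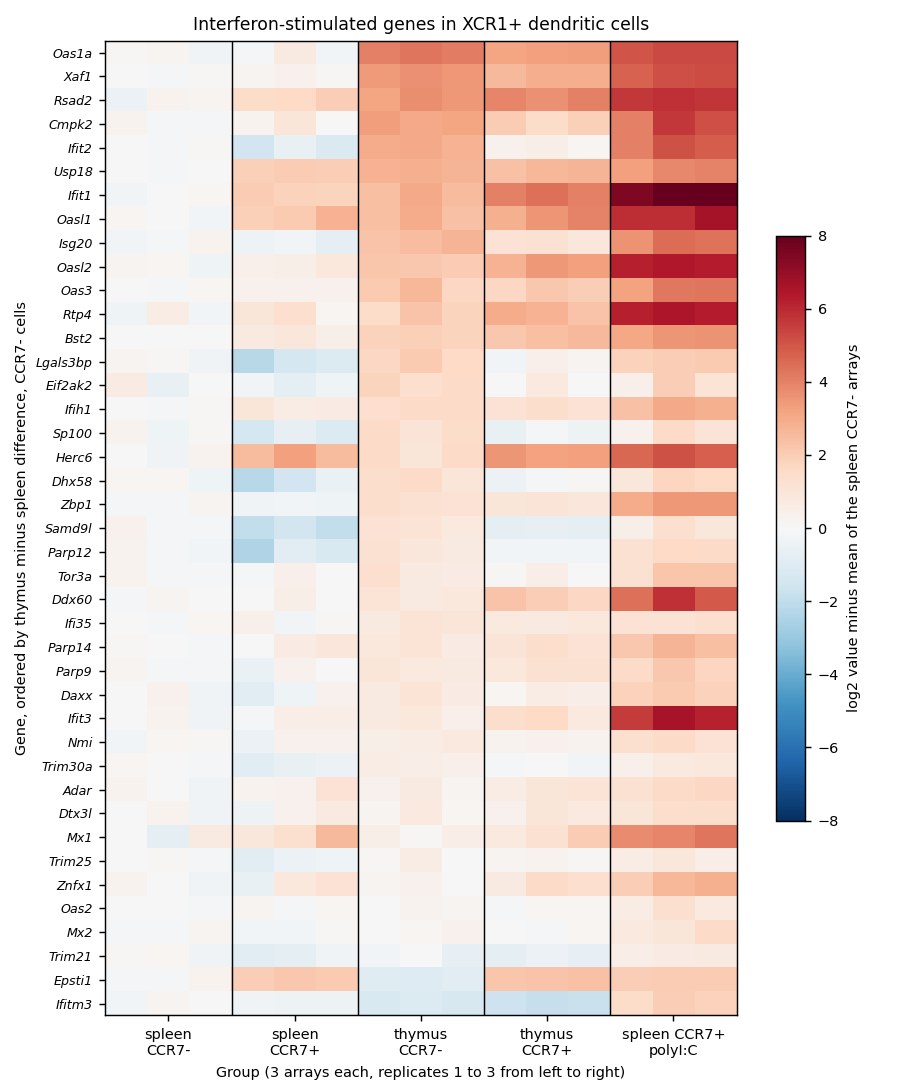
Each row is a gene and each column an array, grouped by population with replicates 1 to 3 from left to right, and colour gives the log2 value minus the mean of the 3 spleen CCR7- arrays (red higher, blue lower). Genes are ordered by the thymus minus spleen difference in CCR7- cells, from Oas1a (4.13) to Ifitm3 (-1.20), and the 3 polyI:C columns are the reddest for most rows.

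In CCR7- cells of untreated mice, 25 of the 41 genes were higher in thymus than in spleen and 2, Ifitm3 and Epsti1, were lower. Over all tested genes, 8.16% were called in either direction, 4.92% as higher and 3.24% as lower in thymus. The median difference of the 41 genes was 1.01 (log2), against 0.04 over all genes. The widest differences were those of Oas1a (17.5-fold), Xaf1 (11.4-fold) and Rsad2 (10.9-fold), and 21 genes were higher by at least 2-fold and 11 by at least 4-fold. All 3 thymus arrays lay above all 3 spleen arrays for 31 genes (15.1% of all genes did so) and below them for 2 (10.8%), and the arrays overlapped for 8. The mean over the 41 genes was 9.04 to 9.23 in the thymus arrays and 7.78 to 7.86 in the spleen arrays.

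In CCR7+ cells of untreated mice, 24 genes were higher in thymus and 1, Ifitm3, was lower, where 8.71% of all tested genes were higher, 3.47% lower and 12.2% called in either direction. The median was 0.78 against 0.04 over all genes, and 19 genes were higher by at least 2-fold and 5 by at least 4-fold. Oas1a (8.67-fold), Oasl2 (6.07-fold) and Xaf1 (6.03-fold) had the widest differences. The thymus arrays were separate and higher for 29 genes (16.5% of all genes) and separate and lower for 1 (9.66%). The mean over the 41 genes was 8.90 to 9.12 in thymus and 7.78 to 8.14 in spleen. Fitted on the compared groups alone, 16 genes were called higher, and Trim25, Ifit3, Oasl1, Dhx58, Parp12 and Ifi35 were among those no longer called.

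Of the 25 genes higher in thymus CCR7- cells, 20 were also higher in thymus CCR7+ cells, which is 80% of the first list and 83.3% of the second. Of all 41 genes, 58.5% were higher in thymus CCR7+ and 61% in thymus CCR7- cells, so a large overlap was given by these shares. Among the other 13588 tested genes, 199 were higher in both, 30.8% and 17.1% of their lists. Over all tested genes the shares higher were 8.71% and 4.92%, so the overlaps of the 41 and of the others have unlike bases. These comparisons share no arrays. Across the 41 genes the differences had a Pearson r of 0.81 and a Spearman rho of 0.76, and across the other genes 0.48 and 0.35. Genes within an array are not independent replicates.

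After polyI:C, 40 of the 41 genes rose in spleen CCR7+ cells and 0 fell, where 8.58% of all tested genes rose, 9.66% fell and 18.2% were called in either direction. The median change was 2.21 against 0.01 over all genes, and 38 genes rose by at least 2-fold, 26 by at least 4-fold and 11 by at least 16-fold. Ifit1 (79.6-fold), Ifit3 (55.6-fold), Ifit2 and Oasl2 (53.1-fold each) rose most. All 3 polyI:C arrays lay above all 3 untreated arrays for 40 genes (13.5% of all genes did so). Epsti1 was the exception, at -0.05 (95% interval -0.34 to 0.24). Replicate 1 of the polyI:C arrays was the lowest of its group for 36 of the 41 genes. B cell markers moved in the same comparison: their mean was 5.98 to 6.89 in untreated and 5.27 to 5.6 in polyI:C arrays, and 3 of 7 tested fell, among them Cd79b by 2.98 on the log2 scale. Their part in the result was not tested.

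Set gene by gene beside the polyI:C change, each of the 25 genes higher in thymus CCR7- cells also rose after polyI:C, which makes 62.5% of the 40 that rose. Since 40 of the 41 rose, almost any 25 of them would have done so. The 62.5% likewise lies beside the 61% of all 41 genes that were higher in thymus CCR7- cells. Among the other tested genes, 142 of the 646 higher in thymus CCR7- cells rose, which is 22% of that list and 12.6% of the 1129 that rose. Over all tested genes 8.58% rose and 4.92% were higher in thymus CCR7- cells. The shares of the 41 and of the other genes thus have unlike bases, and the overlap of the 41 by itself shows no link. The 2 comparisons share no arrays, and across the 41 genes their differences had a Pearson r of 0.69 and a Spearman rho of 0.68. Without Epsti1 and Ifitm3 these were 0.68 and 0.69 over 39 genes. Across the other 13588 genes they were 0.21 and 0.14, and across the 1129 others that rose after polyI:C 0.30 and 0.19. Of the 20 genes with the larger polyI:C changes (2.40 to 6.31), 16 were higher in thymus, with a median tissue difference of 1.98. Of the 21 with the smaller changes (-0.05 to 2.21), 9 were higher, with a median of 0.61. In CCR7+ cells the tissue and polyI:C comparisons share the untreated spleen CCR7+ arrays, so their values are only set side by side below.

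**Figure D2:**
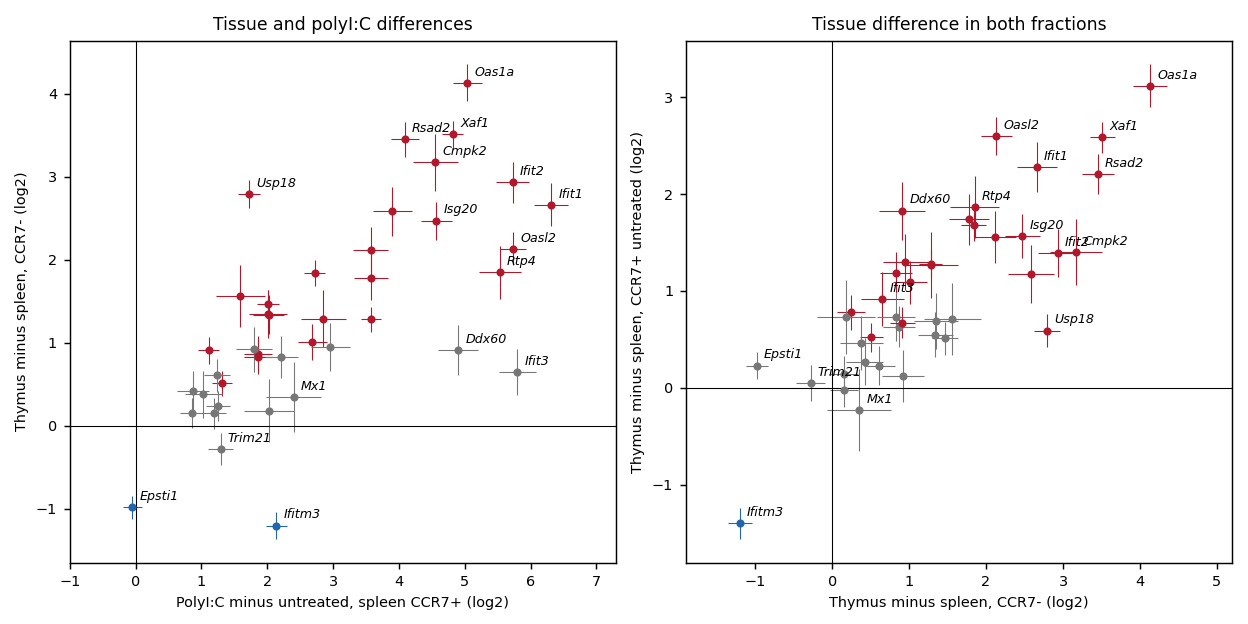
The left panel plots, for each of the 41 genes, the thymus minus spleen difference in CCR7- cells against the polyI:C change in spleen CCR7+ cells, and the right panel plots the tissue difference in CCR7+ cells against that in CCR7- cells (log2, bars are standard errors). Red points were called higher in thymus for the comparison on the vertical axis, blue lower and grey neither, and Ifitm3 and Epsti1 lie below the others on the left, at -1.20 and -0.98.

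The first role group is that of ISG15 conjugation and the ubiquitin ligases, in which 3 of 5 genes were higher in thymus CCR7- cells, 3 were higher in thymus CCR7+ cells and 5 rose after polyI:C. Usp18 removes ISG15 from proteins and restrains signalling at the interferon receptor. Its log2 values were 8.47, 8.31 and 8.44 in spleen CCR7- arrays and 11.22, 11.26 and 11.11 in thymus CCR7- arrays. In CCR7+ cells they were 10.34, 10.47 and 10.35 in untreated spleen, 10.74, 11.08 and 11.11 in thymus, and 11.69, 12.25 and 12.38 after polyI:C. No groups compared between tissues overlapped, and the spleen CCR7- arrays were the lowest of all. The tissue difference was 2.79 (SE 0.17, adjusted p = 1.06e-07) in CCR7- cells and 0.59 (SE 0.17, adjusted p = 0.0348) in CCR7+ cells, beside a polyI:C change of 1.72 (SE 0.17, adjusted p = 9.88e-06). The CCR7+ call was lost when any of 4 single arrays was left out.

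Herc6, the main ligase that attaches ISG15 in mice, was 7.06, 6.82 and 7.35 in spleen CCR7- and 8.58, 8.04 and 8.63 in thymus CCR7- arrays. In the CCR7+ fraction it was 9.63, 10.33 and 9.63 in spleen, 10.63, 10.27 and 10.34 in thymus and 11.67, 12.16 and 11.84 after polyI:C. The tissues were separate in CCR7- cells and overlapped in CCR7+ cells. The differences were 1.34 (SE 0.23, adjusted p = 0.0015) and 0.55 (adjusted p = 0.14), and the polyI:C change was 2.02 (SE 0.23, adjusted p = 3.24e-05). With the mean of its probe sets the CCR7- difference was 0.78, still called. Trim21, a cytosolic antibody receptor and ubiquitin ligase, had 1 of the smallest tissue differences in CCR7+ cells, with 8.69, 8.79 and 9.31 in spleen and 8.86, 9.13 and 8.94 in thymus, which overlapped. In CCR7- arrays Trim21 was 9.69, 9.71 and 9.30 in spleen and 9.37, 9.55 and 8.94 in thymus. Its CCR7+ difference was 0.05 (95% interval -0.37 to 0.47), and after polyI:C it was 10.09, 10.25 and 10.30, a rise of 1.29 (SE 0.19). Trim25, a ligase that acts on the RNA sensor RIG-I, was higher in thymus CCR7+ cells (0.78, or 2.19 with the probe set of largest variance) and not called in CCR7- cells (0.24). Trim30a was higher by 0.51 and 0.52, calls that several single arrays and, in CCR7- cells, the fit with the replicate number as a block ended (adjusted p = 0.0665).

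The IFIT proteins bind foreign RNA and block its translation. Their genes had the widest polyI:C changes of all role groups, with a median of 5.80, and 3 of 3 rose. Ifit1 was 4.02, 4.26 and 4.36 in spleen CCR7- arrays, 6.64, 7.23 and 6.75 in thymus CCR7- arrays, 6.22, 6.06 and 6.0 in spleen CCR7+ arrays and 8.27, 8.60 and 8.22 in thymus CCR7+ arrays. After polyI:C it was 11.69, 12.60 and 12.93. Thymus lay above spleen in every array of both fractions, and the polyI:C arrays lay above all others. The 3 spleen CCR7- values were below the filter value, so the CCR7- difference may be understated. The tissue differences were 2.66 (SE 0.26, adjusted p = 1.02e-05) and 2.28 (SE 0.26, adjusted p = 5.07e-05), and the polyI:C change was 6.31 (SE 0.26, adjusted p = 1.51e-09).

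Ifit3 had a wide polyI:C change beside small tissue differences. It was 6.07, 6.29 and 5.73 in spleen CCR7- and 6.77, 6.86 and 6.43 in thymus CCR7- arrays, then 5.95, 6.56 and 6.57 in spleen CCR7+ and 7.43, 7.60 and 6.81 in thymus CCR7+ arrays. It reached 11.61, 12.65 and 12.21 after polyI:C. The tissues did not overlap in either fraction, yet the difference in CCR7- cells was not called, at 0.65 (SE 0.28, adjusted p = 0.215). In CCR7+ cells it was 0.92 (SE 0.28, adjusted p = 0.0446), a call that ended without any of 10 single arrays, and the polyI:C change was 5.80 (SE 0.28, adjusted p = 5.87e-09). Ifit2 went from 8.07, 8.02 and 8.17 in spleen CCR7- to 11.08, 11.15 and 10.84 in thymus CCR7- arrays, a difference of 2.93 (SE 0.25, adjusted p = 3.83e-06). The CCR7+ values were 6.57, 7.50 and 6.96 in spleen, 8.41, 8.56 and 8.25 in thymus and 12.12, 13.16 and 12.94 after polyI:C. Its CCR7+ tissue difference was 1.39 (SE 0.25, adjusted p = 0.00228) and its polyI:C change 5.73 (SE 0.25, adjusted p = 2.43e-09), and no groups overlapped in these comparisons.

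Active OAS enzymes make short oligoadenylates on double-stranded RNA, which activate the nuclease RNase L. The family was grouped by name and includes the OAS-like genes Oasl1 and Oasl2, so this role is not claimed for each gene. In this family 4 of 5 genes were higher in thymus in each fraction and 5 of 5 rose after polyI:C. Oas1a had the widest tissue difference of the 41 genes in both fractions. It was 7.02, 7.12 and 6.64 in spleen CCR7- and 10.93, 11.20 and 11.03 in thymus CCR7- arrays, then 6.80, 7.67 and 6.72 in spleen CCR7+ and 10.09, 10.18 and 10.27 in thymus CCR7+ arrays. After polyI:C it was 11.93, 12.22 and 12.18, above every other array. The tissue differences were 4.13 (SE 0.22, adjusted p = 2.12e-08) and 3.12 (SE 0.22, adjusted p = 4.44e-07), and the polyI:C change was 5.04 (SE 0.22, adjusted p = 1.95e-09).

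Oasl2 was 4.26, 4.22 and 3.74 in spleen CCR7- and 6.29, 6.23 and 6.08 in thymus CCR7- arrays. In CCR7+ arrays it was 4.49, 4.53 and 4.90 in spleen, 6.82, 7.53 and 7.37 in thymus and 10.28, 10.49 and 10.34 after polyI:C. None of these groups overlapped, and the 3 spleen CCR7- values lay below the filter value. The differences were 2.13 (SE 0.20, adjusted p = 6.34e-06) in CCR7- cells, 2.60 (SE 0.20, adjusted p = 1.07e-06) in CCR7+ cells and 5.73 (SE 0.20, adjusted p = 3.72e-10) for polyI:C. Oas3 and Oasl1 were higher in thymus by 2.12 and 2.58 in CCR7- cells and by 1.56 and 1.18 in CCR7+ cells, beside polyI:C changes of 3.57 and 3.90. Oas2 stood apart from its family. It was 5.27, 5.27 and 5.11 in spleen CCR7-, 5.18, 5.51 and 5.41 in thymus CCR7-, 5.43, 5.04 and 5.39 in spleen CCR7+ and 5.04, 5.37 and 5.40 in thymus CCR7+ arrays, which overlapped throughout. Its tissue differences were 0.15 (95% interval -0.24 to 0.54) and -0.02 (95% interval -0.41 to 0.37). After polyI:C it was 5.84, 6.52 and 6.03, a rise of 0.85 (SE 0.18, adjusted p = 0.00479) that was not called when the compared groups were fitted alone (adjusted p = 0.0637).

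Among sensors of foreign nucleic acid, 4 of 7 genes were higher in thymus CCR7- cells, 3 of 7 in thymus CCR7+ cells and 7 of 7 rose after polyI:C. Ddx60, a helicase of antiviral RNA sensing, was 3.42, 3.83 and 3.54 in spleen CCR7-, 4.72, 4.34 and 4.46 in thymus CCR7-, 3.57, 4.08 and 3.60 in spleen CCR7+ and 5.90, 5.56 and 5.27 in thymus CCR7+ arrays. All spleen values lay below the filter value, so their level is close to what the arrays read for genes without signal. It was 7.99, 9.47 and 8.48 after polyI:C. Thymus was separate and higher in both fractions, with differences of 0.91 (SE 0.30, adjusted p = 0.087, not called) and 1.83 (SE 0.30, adjusted p = 0.00102), and the polyI:C change was 4.90 (SE 0.30, adjusted p = 6.69e-08).

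Zbp1, a sensor of nucleic acid in the Z form, had nearly the same tissue difference in both fractions, 1.28 (SE 0.15) with adjusted p = 7.75e-05 and 8.68e-05. It was 5.97, 5.93 and 6.30 against 7.50, 7.3 and 7.25 in CCR7- arrays of spleen and thymus, and 5.81, 5.83 and 5.70 against 7.04, 7.13 and 7.0 in CCR7+ arrays. After polyI:C it was 9.04, 9.53 and 9.51, a rise of 3.58 (SE 0.15, adjusted p = 1.95e-09), and no groups overlapped. Ifih1, which encodes the polyI:C sensor MDA5, was 9.75, 9.71 and 9.89 in spleen CCR7- and 11.13, 11.31 and 11.33 in thymus CCR7- arrays, a difference of 1.47 (SE 0.17, adjusted p = 4.2e-05). The CCR7+ values were 10.72, 10.36 and 10.44 in spleen and 10.94, 11.16 and 10.96 in thymus, separate but not called at 0.51 (SE 0.17, adjusted p = 0.0607). It rose to 12.13, 12.78 and 12.63 after polyI:C, by 2.01 (SE 0.17, adjusted p = 1.49e-06). Dhx58, which encodes the RNA sensor LGP2, was higher in thymus by 1.29 and 1.27, and both calls ended without some single arrays. With the mean of its probe sets these were 0.59 and 0.45, the latter not called. Eif2ak2, the kinase PKR that halts translation, was higher by 1.56 in CCR7- cells, a call that ended without any of 4 single arrays, and was not called in CCR7+ cells (0.71). Over its probe sets the CCR7+ difference ran from 0.05 to 1.74.

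Znfx1, a helicase of the RNA-sensing group, had 1 of the smallest tissue differences in CCR7- cells. It was 6.32, 6.06 and 5.76 in spleen and 6.27, 6.42 and 5.99 in thymus, which overlapped, with a difference of 0.18 (95% interval -0.64 to 1.0). In the CCR7+ fraction it was 5.45, 6.91 and 7.20 in spleen, 6.75, 7.56 and 7.42 in thymus and 7.99, 8.72 and 8.92 after polyI:C, a rise of 2.02 (SE 0.38, adjusted p = 0.00202). The spleen CCR7+ arrays spread widely, with replicate 1 lowest. Adar, which edits adenosine to inosine in double-stranded RNA, was not called between tissues (0.42 and 0.27) and rose by 0.87 after polyI:C, a call that ended without any of 4 single arrays. Its probe sets differed, since the one of largest variance gave a polyI:C change of 0.04. Over them the CCR7+ tissue difference ran from -0.6 to 0.75.

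Of 8 antiviral effectors, 5 were higher and 1 lower in thymus in each fraction, and 8 of 8 rose after polyI:C. Rsad2 encodes viperin, which makes a chain-terminating nucleotide. It was 7.81, 8.54 and 8.51 in spleen CCR7- and 11.45, 11.99 and 11.74 in thymus CCR7- arrays, then 9.73, 9.86 and 10.26 in spleen CCR7+ and 12.21, 11.96 and 12.32 in thymus CCR7+ arrays. With 13.96, 14.15 and 13.98 after polyI:C, it lay near the highest values of the arrays, where a further rise is compressed. Thymus was separate and higher in both fractions, by 3.45 (SE 0.21, adjusted p = 1.09e-07) and 2.21 (SE 0.21, adjusted p = 1.08e-05), and the polyI:C change was 4.09 (SE 0.21, adjusted p = 1.34e-08).

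Cmpk2, a mitochondrial nucleotide kinase encoded next to Rsad2, was 5.56, 5.18 and 5.13 in spleen CCR7- and 8.62, 8.34 and 8.44 in thymus CCR7- arrays. In CCR7+ arrays it was 5.56, 6.24 and 5.25 in spleen, 7.31, 6.76 and 7.18 in thymus and 9.32, 10.92 and 10.46 after polyI:C. Thymus lay above spleen in each fraction and polyI:C above all, with tissue differences of 3.17 (SE 0.34, adjusted p = 2.48e-05) and 1.40 (SE 0.34, adjusted p = 0.0141) and a polyI:C change of 4.55 (SE 0.34, adjusted p = 4.77e-07). Isg20, an exonuclease that degrades viral RNA, was 6.44, 6.54 and 6.92 against 8.90, 9.07 and 9.34 in CCR7- arrays of spleen and thymus. In the CCR7+ fraction it was 6.24, 6.4 and 5.88 against 7.81, 7.87 and 7.54, and 10.21, 11.07 and 10.96 after polyI:C. The Isg20 groups did not overlap. The CCR7+ call of Cmpk2 ended without thymus CCR7+ replicate 1 or spleen CCR7+ replicate 3, and with the mean of its probe sets, which gave 1.71, 0.65 (not called) and 2.47 for the 3 comparisons. The Isg20 differences were 2.47 (SE 0.23, adjusted p = 6.19e-06), 1.57 (SE 0.23, adjusted p = 0.000381) and 4.57 (SE 0.23, adjusted p = 8.01e-09).

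Ifitm3, a membrane protein that blocks viral entry, was the only gene of the set that was lower in thymus in both fractions. It was chosen for its array values because its tissue difference ran against its polyI:C change. It was 10.27, 10.71 and 10.54 in spleen CCR7- and 9.31, 9.41 and 9.21 in thymus CCR7- arrays, then 10.23, 10.09 and 10.10 in spleen CCR7+ and 8.87, 8.67 and 8.70 in thymus CCR7+ arrays. After polyI:C it was 11.96, 12.50 and 12.38. Every thymus array lay below every spleen array. The tissue differences were -1.20 (SE 0.16, adjusted p = 0.000172) and -1.40 (SE 0.16, adjusted p = 4.91e-05), and it rose by 2.14 (SE 0.16, adjusted p = 4.37e-07) after polyI:C.

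Mx1 and Mx2 encode dynamin-like antiviral GTPases and were not called between tissues in either fraction. Mx2 was 5.53, 5.48 and 5.83 in spleen CCR7- and 5.56, 5.74 and 5.98 in thymus CCR7- arrays, which overlapped, with a difference of 0.15 (95% interval -0.25 to 0.55). It was 5.41, 5.41 and 5.68 in untreated spleen CCR7+, 5.64, 5.53 and 5.75 in thymus CCR7+ and 6.38, 6.59 and 7.11 after polyI:C, a rise of 1.19 (SE 0.19, adjusted p = 0.000493). Mx1 had tissue differences of 0.35 and -0.23 with wide spread between arrays (SE 0.42) and rose by 2.40 after polyI:C. Samd9l, a restriction factor for poxviruses, was higher in thymus by 1.01 and 1.09 and rose by 2.68. Bst2, which encodes tetherin, was higher by 1.84 and 1.68 and rose by 2.72, but all cells were gated as negative for its product CD317, so these values describe cells left by that gate.

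Among the PARP genes and Dtx3l, whose products attach ADP-ribose or ubiquitin to proteins, 2 of 4 were higher in thymus in each fraction and 4 of 4 rose after polyI:C. Parp12 was 10.40, 10.03 and 9.89 in spleen CCR7- and 11.32, 11.01 and 10.84 in thymus CCR7- arrays, separate but not called (0.95, SE 0.29, adjusted p = 0.0609). The CCR7+ values were 7.72, 9.21 and 8.86 in spleen, with replicate 1 far below the others, 9.89, 9.87 and 9.92 in thymus and 11.31, 11.73 and 11.62 after polyI:C. The CCR7+ difference was 1.30 (SE 0.29, adjusted p = 0.00908) and the polyI:C change 2.96 (SE 0.29, adjusted p = 9.32e-06). Without spleen CCR7+ replicate 1 the CCR7+ difference was 0.86, still called. Parp14 was 9.74, 9.67 and 9.6 against 10.51, 10.77 and 10.33 in CCR7- arrays, without overlap, and 9.72, 10.35 and 10.60 against 10.69, 11.05 and 10.83 in CCR7+ arrays. Its differences were 0.87 (SE 0.21, adjusted p = 0.02), which ended without any of 4 single arrays, and 0.63 (adjusted p = 0.0698). After polyI:C it was 11.81, 12.40 and 12.05, a rise of 1.86 (SE 0.21, adjusted p = 3.79e-05). Parp9 and its partner Dtx3l had tissue differences of 0.83 (called, but not without any of 5 single arrays) and 0.38 (not called) in CCR7- cells and rose by 1.86 and 1.03. The polyI:C call of Dtx3l ended with array weights (adjusted p = 0.0826), with the compared groups alone (adjusted p = 0.0829) and without any of 3 single arrays.

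Of the nuclear body and apoptosis genes, 2 of 3 were higher in thymus CCR7- cells, 1 in thymus CCR7+ cells, and 3 rose after polyI:C. Xaf1, which binds the apoptosis inhibitor XIAP, was 5.86, 5.77 and 5.95 in spleen CCR7- and 9.24, 9.54 and 9.32 in thymus CCR7- arrays. In CCR7+ arrays it was 6.06, 6.21 and 5.98 in spleen, 8.46, 8.79 and 8.77 in thymus and 10.57, 11.03 and 11.10 after polyI:C. Spleen and thymus stood far apart next to the spread within each group, with differences of 3.51 (SE 0.16, adjusted p = 1e-08) and 2.59 (SE 0.16, adjusted p = 1.58e-07), and the polyI:C change was 4.82 (SE 0.16, adjusted p = 3.72e-10). With the mean of its probe sets the CCR7+ difference was 1.37 and the polyI:C change 3.14, both called. Daxx, a histone chaperone of nuclear bodies, was 8.29, 8.65 and 8.02 against 9.04, 9.41 and 8.98 in CCR7- arrays of spleen and thymus. The CCR7+ values were 7.46, 7.99 and 8.64 against 8.49, 8.90 and 8.88, and 10.19, 10.40 and 10.15 after polyI:C. The tissues were separate in CCR7- cells and overlapped in CCR7+ cells, and neither difference was called (0.83, adjusted p = 0.0647, and 0.73, adjusted p = 0.0815), while the polyI:C change was 2.21 (SE 0.25, adjusted p = 3.95e-05). Sp100, a scaffold of the same bodies, was higher in thymus CCR7- cells by 1.35, a call that ended when probe sets with suffixed names were left out, and rose by 2.01.

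Of the 6 remaining genes, 3 were higher and 1 lower in thymus CCR7- cells, 3 were higher in thymus CCR7+ cells and 5 rose after polyI:C. Rtp4, an interferon-induced receptor transporter, was 5.44, 6.36 and 5.59 in spleen CCR7- and 7.26, 8.10 and 7.56 in thymus CCR7- arrays, then 6.74, 7.12 and 5.92 in spleen CCR7+ and 8.77, 8.54 and 8.09 in thymus CCR7+ arrays. It reached 11.99, 12.28 and 12.09 after polyI:C, and thymus lay above spleen in every array of each fraction. Its tissue differences were 1.85 (SE 0.32, adjusted p = 0.00158) and 1.87 (SE 0.32, adjusted p = 0.0013), and the polyI:C change was 5.53 (SE 0.32, adjusted p = 3.57e-08). With the mean of its probe sets the tissue differences were 1.01 and 0.99, both called. Lgals3bp, a secreted glycoprotein, was 8.56, 8.45 and 8.06 against 10.00, 10.48 and 9.93 in CCR7- arrays and 6.12, 6.93 and 7.28 against 8.17, 8.78 and 8.60 in CCR7+ arrays. With 10.23, 10.34 and 10.48, its polyI:C arrays overlapped the thymus CCR7- arrays. The differences were 1.78 (SE 0.26, adjusted p = 0.000515), 1.74 (SE 0.26, adjusted p = 0.000572) and, for polyI:C, 3.57 (SE 0.26, adjusted p = 4.71e-07).

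Tor3a, an ATPase of the endoplasmic reticulum, had 1 of the smallest tissue differences in CCR7+ cells, with 7.3, 7.80 and 7.41 in spleen and 7.54, 7.92 and 7.42 in thymus, which overlapped. In CCR7- arrays it was 7.68, 7.31 and 7.27 in spleen and 8.78, 8.14 and 8.08 in thymus, separate but not called (0.92, adjusted p = 0.0531). The CCR7+ difference was 0.12 (95% interval -0.46 to 0.70), and it rose to 8.65, 9.66 and 9.61 after polyI:C, by 1.80 (SE 0.27, adjusted p = 0.000353). Ifi35 and Nmi encode partner proteins. Ifi35 was higher in thymus by 0.91 and 0.67, Nmi was not called (0.61 and 0.23), and they rose by 1.11 and 1.24.

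Epsti1, an interferon-induced gene of little-known function, moved apart from the rest. It was 11.14, 11.13 and 11.60 in spleen CCR7- and 10.32, 10.26 and 10.36 in thymus CCR7- arrays, a difference of -0.98 (SE 0.14, adjusted p = 0.000312). In the CCR7+ fraction it was 13.24, 13.42 and 13.39 in spleen, 13.51, 13.60 and 13.65 in thymus and 13.28, 13.29 and 13.33 after polyI:C. Its level thus followed the CCR7 gate rather than the treatment in these arrays, with polyI:C values inside the range of the untreated spleen. Its probe sets differed in CCR7+ cells, where the tissue difference ran from -0.82 to 0.64 over them.

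**Figure D3:**
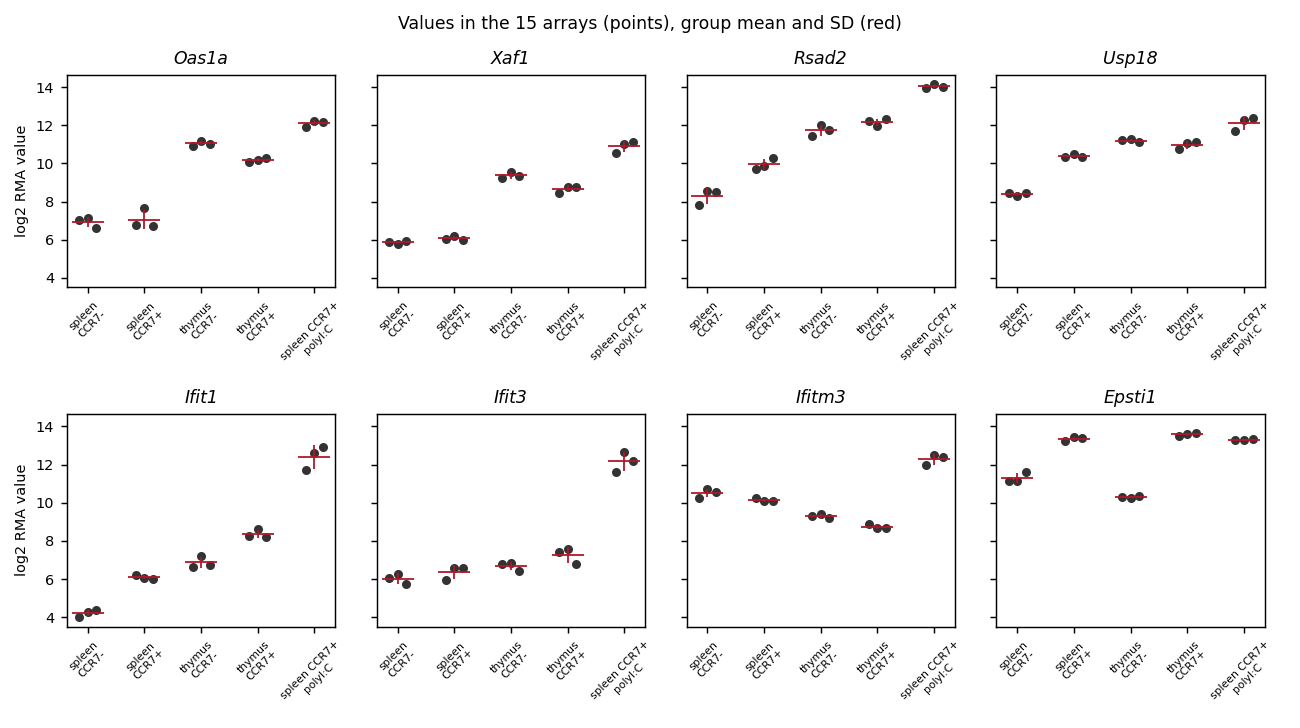
Each point is the log2 RMA value of an array for 8 of the genes, with 3 arrays per group on the horizontal axis and the group mean and SD in red. Oas1a, Xaf1, Rsad2 and Ifit1 show thymus above spleen and polyI:C highest, Ifitm3 shows thymus lowest, and Epsti1 shows CCR7- below CCR7+ with polyI:C at the level of untreated spleen.

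The polyI:C cells were next set beside thymus CCR7+ cells, which asks how the steady-state level of thymus relates to an induced level. In this comparison 35 of the 41 genes were higher after polyI:C and 0 were lower, where 7.4% of all tested genes were higher, 16.7% lower and 24.1% called in either direction. The median difference was 1.59 against 0.01 over all genes. Ifit3 (29.4-fold), Ifit2 (20.2-fold) and Ifit1 (16.4-fold) were the furthest above thymus, then Rtp4 (12.6-fold) and Ifitm3 (11.6-fold). The 3 genes with the widest tissue differences in CCR7- cells were 3.81-fold (Oas1a), 4.67-fold (Xaf1) and 3.66-fold (Rsad2) above thymus, while Cmpk2 and Oasl2 were 8.89-fold and 8.74-fold above it. Not called were Trim25 (0.47), Eif2ak2 (0.88), Adar (0.60), Dtx3l (0.56), Ifi35 (0.44) and Epsti1 (-0.28). The polyI:C arrays lay above the thymus CCR7+ arrays for 39 genes (18% of all genes did so). Of 8 T cell and thymocyte markers tested, 6 were lower after polyI:C than in thymus CCR7+ cells, and their part in the result was not tested.

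Over the 5 group means, polyI:C was highest for 37 of the 41 genes, against 27.9% of all tested genes. Thymus CCR7- was highest for 3 (24.8% of all genes) and thymus CCR7+ for Epsti1. Second place went to thymus CCR7- for 20 genes (22.8% of all genes) and to thymus CCR7+ for 14 (16.5%). The lowest place went to spleen CCR7- for 24 (21.5% of all genes) and to spleen CCR7+ for 15 (16.5%). The mean over the 41 genes ran from 7.78 to 8.14 in untreated spleen arrays of either fraction, from 8.90 to 9.23 in thymus arrays and from 10.52 to 11.10 after polyI:C, so these 3 ranges did not overlap. The ranges of the 2 thymus fractions did overlap, as did those of the 2 untreated spleen fractions.

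The 12 genes with a core in a promoter window had a median tissue difference of 1.52 in CCR7- cells (8 called higher) and a median polyI:C change of 3.15 (12 rose). The 19 genes whose windows held none had medians of 1.01 (11 higher) and 2.21 (18 rose). Ifitm3, with 2 cores in its first 30 transcribed bases, was among the first group although it was lower in thymus. Ifit2, Oasl2, Cmpk2, Isg20 and Xaf1 were among the second although each rose by more than 4.5 on the log2 scale.

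The CCR7+ fraction was then set beside the CCR7- fraction of the same tissue. In thymus 8 of the 41 genes were higher in CCR7+ cells and 13 were lower, a share of calls that can be read against 37.3% of all tested genes called, 16.8% higher and 20.4% lower. In untreated spleen 10 were higher and 9 lower, against 36.5% of all genes called, 12.3% higher and 24.1% lower. The medians of the 41 genes were -0.21 and 0.14, against -0.06 and -0.03 over all genes. The calls of the set as a whole thus lay closer to those of all genes here than in the tissue and polyI:C comparisons. Without thymus CCR7- replicate 3 or thymus CCR7+ replicate 2, 5 genes in place of 8 were higher in thymus CCR7+ cells. B cell markers were higher in CCR7+ cells too, 5 of 7 in untreated spleen (mean 5.15 to 5.51 in CCR7- and 5.98 to 6.89 in CCR7+ arrays) and 3 of 7 in thymus, and their part was not tested. Which genes moved varied within the families, since Ifit1 was higher in CCR7+ cells (1.49 in thymus, 1.88 in spleen) and Ifit2 lower (-2.62 and -1.08).

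Epsti1 (3.27 in thymus and 2.06 in spleen), Herc6 (2.00 and 2.79), Ifit1, Oasl1 (0.86 and 2.25), Oasl2 (1.04 and 0.56) and Bst2 (0.53 and 0.70) were higher in CCR7+ cells of both tissues. The thymus calls of Oasl1 and Bst2 and the spleen call of Oasl2 were lost without some single arrays. Samd9l (-1.72 and -1.80), Lgals3bp (-1.62 and -1.58), Sp100 (-1.71 and -1.05), Dhx58 (-1.45 and -1.43), Parp12 (-1.16 and -1.51), Trim30a (-0.62 and -0.63) and Ifit2 were lower in both. The 2 comparisons share no arrays, and across the 41 genes the changes had a Pearson r of 0.79 and a Spearman rho of 0.78, beside 0.84 and 0.77 across the other tested genes.

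The thymus and spleen changes from CCR7- to CCR7+ differed, by the interaction term of the same fit, for 6 of the 41 genes, where 3.18% of all tested genes were called, 1.79% with a higher and 1.39% with a lower thymus change. Usp18 was 1.98 higher in CCR7+ than in CCR7- cells of spleen and -0.21 in thymus, an interaction of -2.20 (SE 0.24, adjusted p = 0.000161). Epsti1 was higher in CCR7+ cells of both tissues and more so in thymus, with an interaction of 1.21 (SE 0.19, adjusted p = 0.00264). Both calls held in all 27 other settings tried. The other 4 were Ifit2 (-1.54), Rsad2 (-1.23), Ifih1 (-0.96) and Xaf1 (-0.91), with adjusted p from 0.0314 to 0.0414, and each of these calls ended when any of 8 or more single arrays was left out. Without thymus CCR7- replicate 2, 1 gene in place of 5 had a lower thymus change. With its probe set of largest variance the Rsad2 interaction was -0.36 (adjusted p = 0.773) and its spleen change 0.64 (not called). Rsad2 was called in spleen (1.67) and not in thymus (0.43), as was Ifih1 (0.73 and -0.24), while Xaf1 was lower in thymus CCR7+ cells (-0.69) and not called in spleen (0.22).

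**Figure D4:**
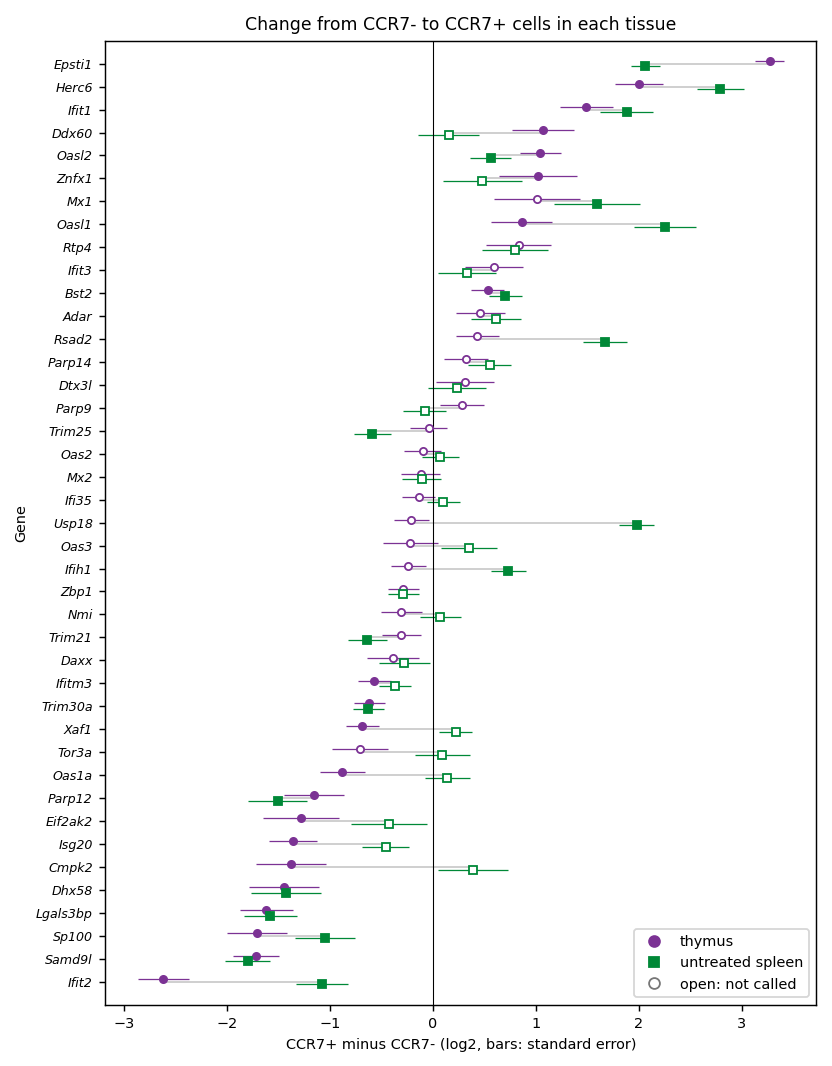
The horizontal axis gives the CCR7+ minus CCR7- change (log2, bars are standard errors) of each of the 41 genes in thymus (purple circles) and untreated spleen (green squares), with open symbols for changes not called. Usp18 has the widest gap between tissues, at -0.21 in thymus and 1.98 in spleen, and Epsti1 (3.27) and Herc6 (2.00) have the highest thymus changes.

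Other genes of the pathway were read from lists. None of the 6 interferon genes with a probe set was called between tissues in either fraction, and 4 of them rose after polyI:C. They were dim in untreated cells. Only 3 of the 6 had a group mean above the filter value in thymus CCR7-, thymus CCR7+ and spleen CCR7- cells, and 2 in spleen CCR7+ cells. A tissue difference at such levels could be missed. Ifnb1, which encodes interferon beta, was 4.83, 4.74 and 4.94 in untreated spleen CCR7+ and 4.55, 4.78 and 4.96 in thymus CCR7+ arrays, which overlapped. In polyI:C arrays it was 6.58, 8.24 and 8.48, with replicate 1 lowest, a rise of 2.93 (SE 0.35, adjusted p = 4.52e-05). Ifna2 rose by 2.23 (SE 0.28), Ifna4 by 0.87 and Ifna5 by 0.86. Ifna2 and Ifna4 would not have passed the filter on dim signal without the polyI:C arrays. Their untreated group means were 3.88 to 4.29 and 4.20 to 4.27. The filter thus favoured their place among the genes that rose, and their rises are only described.

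Of 7 genes of the receptor and of ISGF3, 1 was higher in thymus CCR7- cells, 2 were higher in thymus CCR7+ cells, and 2 rose and 1 fell after polyI:C. Stat2 was 6.80, 6.19 and 5.93 in spleen CCR7- and 8.27, 8.36 and 7.75 in thymus CCR7- arrays, without overlap, a difference of 1.82 (SE 0.26, adjusted p = 0.000417). In CCR7+ cells its tissue difference was 0.52 (adjusted p = 0.227), and it rose by 2.41 (SE 0.26, adjusted p = 2.57e-05) after polyI:C. Irf9 had tissue differences of 0.13 and 0.78, of which the CCR7+ one was called (adjusted p = 0.0214), and rose by 1.13. The receptor genes Ifnar1 (0.18 and 0.21) and Ifnar2 (0.43 and 0.66) differed less, with only the CCR7+ difference of Ifnar2 called (adjusted p = 0.041), and Jak1 fell by 1.06 after polyI:C.

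Irf7, the factor that amplifies interferon gene expression and is itself induced by interferon, was read with a list of 7 interferon regulatory factors. That list did not hold Irf9, and Irf7 was the only 1 of the 7 called between tissues. It was 8.63, 8.17 and 7.89 in spleen CCR7- and 10.73, 10.85 and 10.24 in thymus CCR7- arrays, and 5.87, 6.94 and 7.44 in spleen CCR7+ and 8.56, 9.32 and 9.44 in thymus CCR7+ arrays, with thymus above spleen in each fraction. The differences were 2.38 (SE 0.39, adjusted p = 0.0012) and 2.36 (SE 0.39, adjusted p = 0.00118), and the polyI:C change was 4.76 (SE 0.39, adjusted p = 1.48e-06). Of 6 genes that sense polyI:C or relay its signal, Ddx58, which encodes RIG-I, was higher in thymus by 1.49 and 1.72 and rose by 4.21. Tlr3 was 10.70, 9.89 and 10.01 in thymus CCR7- but 4.55, 4.78 and 4.20 in thymus CCR7+ arrays, and 11.50, 11.06 and 11.15 in spleen CCR7- but 6.86, 8.68 and 8.77 in spleen CCR7+ arrays. The CCR7+ fraction was thus lower in every array of both tissues, by 5.70 (SE 0.49) in thymus and 3.14 (SE 0.49) in spleen on the log2 scale.

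Markers of other cells differed between thymus and spleen arrays as well. The 9 measured T cell and thymocyte markers had a mean of 4.8 to 5.65 in thymus CCR7-, 5.92 to 7.35 in thymus CCR7+, 4.08 to 4.32 in spleen CCR7-, 4.45 to 4.58 in untreated spleen CCR7+ and 4.39 to 4.53 in polyI:C arrays, with 8 of 9 above the filter value in both thymus groups and 4 to 6 in the spleen groups. Of 8 tested, 2 were higher in thymus CCR7- cells and 5 in thymus CCR7+ cells. Rag1, the recombinase of developing lymphocytes, was 5.96, 7.39 and 5.45 in thymus CCR7- and 8.81, 10.07 and 8.49 in thymus CCR7+ arrays, against 2.53 to 3.27 in all spleen arrays. Of 6 thymic epithelial markers tested, 2 were higher in thymus CCR7- cells (4 not called) and 3 in thymus CCR7+ cells (3 not called). Epcam averaged 10.44 and 8.17 in these against 6.41 and 6.39 in the same fractions of spleen. Foxn1 (4.77 against 4.53) and Aire (5.1 against 5.12) were close in CCR7- cells of thymus and spleen. Between the thymus fractions Epcam was lower in CCR7+ cells, while Krt8 (5.8 in CCR7-, 7.24 in CCR7+) and Ccl25 (5.52 and 6.76) were higher there. Plasmacytoid DC markers had 1 of 9 higher in thymus CCR7- cells and 0 of 9 called in CCR7+ cells (limma). The mean of the T cell markers was lower in thymus CCR7- than in thymus CCR7+ arrays, and in both it lay above every spleen array. The part of these RNAs in the tissue differences was not tested.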

How the data were processed

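The deposited values are on a log2 scale; the authors ran RMA through affy, per the submitters' processing notes. The versions and the arrays normalised together are not stated there. RMA gives no detection calls and compresses changes of dim genes. Of 45101 probe sets, 34958 carried 1 symbol, 932 several and 9211 none in the annotation used. limma 3.58.1 (R 4.3.3) tested the differences in a fit of 5 group means to 15 arrays (10 residual and 4.01 prior degrees of freedom), after a test on simulated data. SE is limma's moderated standard error, and intervals are 95%. The 41 genes and all lists were chosen with earlier results of these data known. Any gene of the set could be named. Values of all arrays are given for the 2 genes of each role with the largest polyI:C change, the 3 largest and 3 smallest tissue differences per fraction, and genes called in the interaction; Ifitm3 was added after its values were seen. Of other lists, called genes with large changes were named, with Stat2, Irf7, Irf9, Ifnar1, Ifnar2 and Tlr3. Same-numbered arrays of thymus and spleen deviated together within a fraction (r of 0.52 to 0.57 in CCR7- and 0.42 to 0.59 in CCR7+ cells) but not between fractions. The numbers may thus pair the tissues, though the titles do not say what they mark. The reported tests did not use this pairing, and the replicate block over all groups fitted a shared effect of each number. Alternatives were other filters, the mean or most variable probe set, probe sets with suffixes left out, repeated quantile normalisation, median centring, trend and robust eBayes, array weights, compared groups only, the replicate block, and each array left out.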

Additional observations from a re-analysis of the deposited data

Results flagged for a closer look

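For 6 genes the change from CCR7- to CCR7+ cells differed between thymus and untreated spleen by limma's interaction term, given as the thymus change minus the spleen change (log2, Benjamini-Hochberg adjusted p). Usp18 stood out at -2.2 (adjusted p = 0.000161), since it was higher in CCR7+ than in CCR7- cells of spleen and was not called in thymus (95% interval of the thymus change -0.58 to 0.15). Epsti1 was the only gene of the set with a higher thymus change, at 1.21 (adjusted p = 0.00264). Ifit2 was lower in CCR7+ cells of both tissues and differed by -1.54 (adjusted p = 0.0314). Rsad2 differed by -1.23 (adjusted p = 0.0373), but by -0.36 (adjusted p = 0.773) with its probe set of largest variance. Ifih1 differed by -0.96 (adjusted p = 0.0395) and Xaf1 by -0.91 (adjusted p = 0.0414). Ifih1 was not called with the replicate number as a block (adjusted p = 0.0504).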

How the results depend on the processing

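Of the calls made for the 41 genes, those that held in all 27 alternatives that gave a value were 21 of 27 between tissues in CCR7- cells, 16 of 25 in CCR7+ cells, 36 of 40 for polyI:C, 33 of 35 for polyI:C against thymus CCR7+, 16 of 21 and 12 of 19 for the fraction change in thymus and spleen, and 2 of 6 for the interaction, and none reversed. With the probe set of largest variance, the median tissue difference in CCR7+ cells was 1.09 and the median polyI:C change 2.68, 1 gene was lower after polyI:C than in thymus CCR7+ cells, and 3 had a lower thymus change by the interaction, against 2 with arrays centred on their medians. Leaving out single arrays gave medians of 0.73 to 1.02 between tissues in CCR7+ cells, 2.11 to 2.52 for polyI:C and 1.41 to 1.78 for polyI:C against thymus CCR7+. It gave 5 to 10 genes higher in thymus CCR7+ than CCR7- cells (5 without thymus CCR7- replicate 3 or thymus CCR7+ replicate 2) and 1 to 6 with a lower thymus change by the interaction. The cause was not tested. With the replicate number as a block, 26 and 25 genes were higher in thymus in the CCR7- and CCR7+ fractions, 40 rose after polyI:C and 36 were higher after polyI:C than in thymus CCR7+ cells; 10 were higher and 13 lower in CCR7+ than CCR7- cells of thymus, 12 and 9 in spleen, and the interaction had 1 and 4. A block with the compared groups alone, chosen after seeing the data, gave 32 and 24 genes higher in thymus and 37 that rose after polyI:C. Signal limits the dim genes, since all spleen CCR7- values of Ifit1, Oasl2 and Ddx60 lay below the filter value, so their folds may be understated, and Rsad2 lay near the highest values after polyI:C.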

Other observations

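A list of interferon gamma responsive genes was read as well, and whether they differed from the set was not tested. These genes were not shown to respond to interferon gamma alone. Of 12 measured, 0 were higher and 4 lower in thymus CCR7- cells by limma, among them Ciita (-1.23), the activator of MHC class II genes, and Cxcl9 (-0.67), a chemokine for T cells, with a median of -0.34. In thymus CCR7+ cells 5 were higher and 2 lower, with a median of 0.56. After polyI:C 9 rose and 1 fell. Iigp1 (4.29), Cxcl10 (3.77) and Irgm1 (3.63) rose most, and Ciita fell by 1.99 on the log2 scale. Gbp2, a guanylate-binding protein, was higher in CCR7+ than in CCR7- cells by 5.11 in thymus and 3.72 in spleen.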
